A study of Homo sapiens and Mus musculus with 33 samples.

Results

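The zinc finger genes of human chromosome 19 were followed in HCT116 cells, a colon carcinoma line. Members were chosen by name and place: every gene of the RNA table on chromosome 19 whose symbol is ZNF, then digits, then at most 1 letter. This gave 249 of 35805 genes, which were 48.6% of the 512 genes with such a symbol and 11.4% of the genes of the chromosome. Every peak of H3K18cr or H3K18ac that lay in one of these genes or within 2 kb of it was taken with them, which gave 134 of 40266 peaks. Of the 249 genes, 246 were found in the GENCODE 44 annotation (GRCh38), and 243 of these were protein coding.

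Unmodified HCT116 cells received 5 µM MS275 (entinostat), an inhibitor of class I histone deacetylases, or the DMSO vehicle, for 18 h. RNA was sequenced in 4 libraries per treatment, and each mark was profiled by ChIP-seq in 3 libraries per treatment, with 1 input per treatment. HCT116 is 1 tumour line. The study's methods call the 4 RNA libraries biological replicates. For ChIP of these cells they name fewer biological replicates than the 3 libraries per treatment used here, with technical repeats of each sample, in a passage that also covers qPCR. Some ChIP libraries may therefore share a culture, and their p-values measure a spread between libraries that may in part be technical.

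Most zinc finger genes of this chromosome stand in dense clusters that arose by repeated duplication. Their proteins carry tandem C2H2 fingers that bind DNA, and many begin with a KRAB domain. KRAB recruits TRIM28 (KAP1), which brings the methyltransferase SETDB1, HP1 proteins and the NuRD deacetylase complex to the bound site and silences it. Retrotransposons are known targets. HDAC1 and HDAC2, the class I deacetylases of NuRD, are targets of MS275. Crotonylation and acetylation of lysine 18 of histone H3 (H3K18cr and H3K18ac) both mark the starts of active genes, and class I deacetylases can remove both.

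RNA totals were between 35608533 and 53415604 counts per library. Of 8 epithelial markers, 7 passed the filter on counts. EPCAM was at 379 ± 47.1 CPM with DMSO (counts per 1000000 of the TMM-scaled library total; SD, n = 4) and CDX2, an intestinal transcription factor, at 23.3 ± 3.12, while VIL1, a brush border gene, averaged 12.1 counts. Summed over 5 immune markers, between 4.91 and 11.7 CPM were counted per library, most of it CD68, a lysosomal protein of macrophages (6.42 ± 1.31 CPM with DMSO). LYZ averaged 16.4 counts, and PTPRC, CD3E and CD79A averaged under 10. CDKN1A, a cell cycle inhibitor known to respond to deacetylase inhibitors, rose from 190 ± 30.6 to 231 ± 42.5 CPM when libraries of the same number were paired (log2 change 0.28 ± 0.07 SE, edgeR adjusted p = 0.0167), and not in the unpaired test (adjusted p = 0.870).

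The stretches around the starts of 6 genes are shown because they lie in peaks and the results below turn on them. ZNF653, ZNF579, ZNF787 and ZNF780A were called in RNA only when libraries of the same number were paired. ZNF497 and ZNF561 had the largest falls of H3K18cr among called peaks with enough reads. Each is the RefSeq promoter (GRCh38.p14), 250 bases before to 50 after the start, written 5′ to 3′ on the strand of the gene. Capitals mark words searched on both strands. They are GGGCGG (the GC box), then CCAAT (the CCAAT box), then TATAAA (the TATA box), then TGACGTCA (a cyclic AMP response element), and the palindromic motif of NRF1. None of these words contains another.
ZNF653, chr19:11505790-11506089, minus strand: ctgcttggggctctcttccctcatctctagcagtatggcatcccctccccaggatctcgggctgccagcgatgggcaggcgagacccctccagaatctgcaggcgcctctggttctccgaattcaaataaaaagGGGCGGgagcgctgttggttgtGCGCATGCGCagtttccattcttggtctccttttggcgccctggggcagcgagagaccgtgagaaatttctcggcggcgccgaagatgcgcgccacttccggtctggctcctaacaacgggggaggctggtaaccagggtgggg
ZNF579, chr19:55580799-55581098, minus strand: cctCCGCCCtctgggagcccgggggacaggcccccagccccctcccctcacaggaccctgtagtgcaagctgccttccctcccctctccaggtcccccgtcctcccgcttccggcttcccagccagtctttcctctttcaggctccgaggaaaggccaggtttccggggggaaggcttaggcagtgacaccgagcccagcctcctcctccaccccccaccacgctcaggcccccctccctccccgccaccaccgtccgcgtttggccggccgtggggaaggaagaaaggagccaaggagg
ZNF787, chr19:56121246-56121545, minus strand: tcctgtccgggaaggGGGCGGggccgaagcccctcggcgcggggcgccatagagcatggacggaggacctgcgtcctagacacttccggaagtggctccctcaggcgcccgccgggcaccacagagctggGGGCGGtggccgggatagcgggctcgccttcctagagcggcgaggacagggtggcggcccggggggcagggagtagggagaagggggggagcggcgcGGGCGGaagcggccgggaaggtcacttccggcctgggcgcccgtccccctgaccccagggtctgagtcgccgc
ZNF780A, chr19:40090894-40091193, minus strand: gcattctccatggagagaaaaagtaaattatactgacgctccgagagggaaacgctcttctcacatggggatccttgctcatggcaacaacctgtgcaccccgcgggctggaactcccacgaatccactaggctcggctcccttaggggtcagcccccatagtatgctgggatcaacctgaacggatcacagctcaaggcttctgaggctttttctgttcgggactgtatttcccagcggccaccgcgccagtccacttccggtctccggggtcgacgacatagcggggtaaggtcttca
ZNF497, chr19:58362702-58363001, minus strand: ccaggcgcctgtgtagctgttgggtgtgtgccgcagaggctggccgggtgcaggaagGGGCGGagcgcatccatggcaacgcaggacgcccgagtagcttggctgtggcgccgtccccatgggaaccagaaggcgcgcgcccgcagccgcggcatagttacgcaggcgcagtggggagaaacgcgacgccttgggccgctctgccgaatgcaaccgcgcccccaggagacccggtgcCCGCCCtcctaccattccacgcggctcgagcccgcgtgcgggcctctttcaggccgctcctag
ZNF561, chr19:9621183-9621482, minus strand: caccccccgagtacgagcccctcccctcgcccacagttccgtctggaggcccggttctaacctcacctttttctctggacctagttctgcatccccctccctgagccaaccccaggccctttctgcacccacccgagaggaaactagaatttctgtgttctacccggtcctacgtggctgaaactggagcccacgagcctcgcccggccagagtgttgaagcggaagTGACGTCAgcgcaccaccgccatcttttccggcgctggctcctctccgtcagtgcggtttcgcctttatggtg

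ZNF787 held the GC box 3 times and ZNF497 held it 2 times in these windows. ZNF561 held the cyclic AMP response element, and ZNF653 held a GC box and the NRF1 motif. ZNF780A held none of the words. A RefSeq promoter was found for 213 members. Of these, 67.6% held GGGCGG, against 45.0% of 35116 RefSeq promoters of the same length and 56.5% of 285 promoters of ZNF genes of other chromosomes. For a member with several promoters, only the nearest to the start of the gene as counted was taken. The other sets were counted by promoter, and the 285 came from at most 263 genes. The sets were thus not chosen alike, which bears on every share and median compared between them here. CCAAT stood in 53.5% of the members' promoters, in 34.6% of all and in 39.3% of those of the other ZNF genes. TATAAA was at 2.35% in members, 11.5% in all and 5.61% in the other ZNF genes. The median number of CG pairs per promoter was 20 among members, 14 among all and 23 among the other ZNF genes. It was 23 for members with a peak at their start and 17 for members with no peak. The GC box was nearly as common without a peak (67.6% of 105 promoters) as with one at the start (69.8% of 96), and 26 of the 33 matched members with no RNA count held it. These are matches of letters and say nothing of binding.

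In DMSO, the members' RNA formed a low and uneven layer. Their summed counts came to between 1354 and 1689 CPM before scaling in the 8 libraries, in which between 157 and 170 of the 249 genes had any count. No read was counted for 41 members in any library, where a count of 0 allows up to between 0.0562 and 0.0842 CPM in a library (3 counts, counting error alone). Another 57 had too few counts for the test, and 151 passed its filter. Per kb of exon, the median of the tested members was 1.01 CPM. It was 2.53 in tested ZNF genes of other chromosomes, 8.16 in the other tested genes of chromosome 19 and 4.62 in all tested genes.

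ZNF146, whose protein consists almost wholly of fingers with no KRAB domain, was the highest member, at 36.2 ± 8.29 CPM per kb with DMSO (SD, n = 4). ZNF581, which overlaps ZNF580 and CCDC106 on the same strand and may share reads with them, followed at 25.4 ± 7.38. Then came ZNF428 at 24.2 ± 5.17, ZNF787 at 18.2 ± 6.74 and ZNF579 at 17.8 ± 6.43. Neighbours in this order differed by less than the larger of their SDs, except ZNF146, which stood above ZNF581 by more than either SD. The libraries numbered 3 set much of that spread. ZNF146 had 158, 166, 99.5 and 176 CPM in DMSO libraries 1 to 4, and ZNF787 had 65.9, 49.3, 103 and 50.4. Library 3 was thus the lowest for one gene and the highest for the other.

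A peak of H3K18cr or H3K18ac overlapped the start of 109 members, with 1 kb allowed on either side. Of the rest, 13 had a peak only in the gene body or flank and 127 had none within 2 kb. The share with a start peak was 43.8%, against 74.9% of ZNF genes of other chromosomes and 65.8% of the other protein-coding genes of chromosome 19. It was 60.2% of all protein-coding genes, and 43.5% of all genes in the table, non-coding ones included. RNA levels followed this division. The median was 1.54 CPM per kb of exon in members with a start peak, 0.673 in those with a body or flank peak, and 0.0067 in those without one. Of the 41 members with no read, 40 had no peak. The exception was ZNF536, a brain-enriched gene, which had a peak at its start and 1 in its body. Conversely ZNF28, at 1.66 CPM per kb, was the highest member with no peak within 2 kb. Fewer cells with RNA and less RNA per cell cannot be told apart in these bulk samples.

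**Figure D1:**
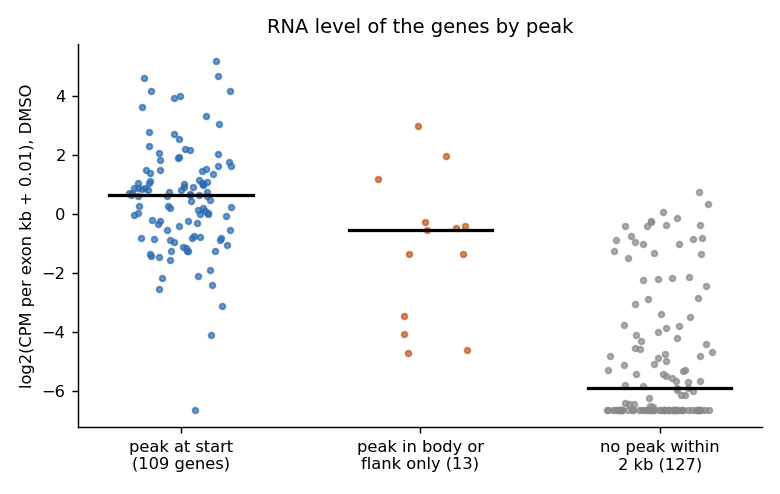
Each point is 1 gene, placed by its log2(CPM per exon kb + 0.01) in DMSO libraries (mean of 4), for genes with a peak at the start, in the body or flank, or none; bars are medians. Genes with a start peak centre on 1.54 CPM per kb, and most of those without a peak lie near the floor of the plot.

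Neighbouring members were grouped where less than 1 Mb separated one from the next, which gave 16 groups between positions 2819874 and 58481230 of chromosome 19. The group nearest the long arm's end (chr19:55476332-58481230) was the largest, with 59 members, 32 of them with a start peak and 5 with no read. The short arm group next to the centromere (chr19:19668796-24129961) had 36 members, 7 with a start peak and 11 with no read. Another with few start peaks (chr19:36182060-37817300) had 26 members, 6 with a start peak and 10 with no read. In the short arm group at chr19:7069444-9793180, 11 of 16 members had a start peak and none was at 0 in every library. The groups thus differed in how many of their members were marked and transcribed.

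**Figure D2:**
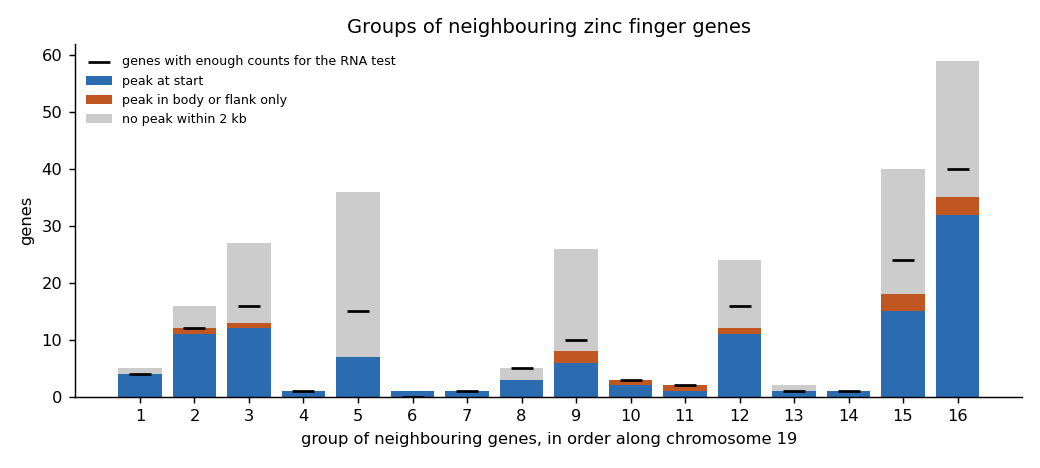
Bars count the members in each of the 16 groups of neighbouring genes, in order along chromosome 19, by peak class; black marks give the members with enough counts for the RNA test. Group 16 holds 59 members and 32 start peaks, and group 5 holds 36 members and 7 start peaks.

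Of the 134 peaks, 104 lay at a member's start, 25 in a gene body and 5 in a flank. Their median width was 1800 bp, against 1950 bp over all peaks. ZNF114 had 6 peaks and ZNF586 had 4. In 5 cases 1 peak covered the starts of a pair of members, such as ZNF709 with ZNF564, and 37 start peaks also lay at the start of a gene outside the family, so their signal cannot be given to 1 gene. Starts are those of the genes as counted, and the nearest RefSeq promoter lay within 1 kb of them for 179 of 213 matched members. For ZNF709, ZNF580, ZNF581 and ZNF585B, each in such a pair, it was 66658, 5986, 8190 and 7617 bases away, outside the shared peak. The peak with the highest H3K18cr over input in DMSO was at the start of ZNF833P (chr19:11639251-11640600, log2 ratio 3.12), a pseudogene, where the input had 7.82 scaled reads. The body peak of ZNF628 (chr19:55483951-55486350) was at 2.89 and the start peak of ZNF114 (chr19:48169651-48171600) at 2.69. At member starts the median log2 ratio to input was 1.61 for H3K18cr and 1.77 for H3K18ac, and at the starts of any gene it was 1.64 and 1.71. Across the 134 peaks the log2 levels of the marks in DMSO correlated at r = 0.977, a description over peaks that share their width and base composition.

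With MS275, the members' peaks held a smaller part of the reads of both marks. Scaled reads are reads per peak after each library was scaled to the largest, so a fall in them is relative to the rest of the library: ChIP-seq scaled in this way does not show whether the amount of a mark on the chromatin fell or rose, and every fall of a mark given here is such a relative one. By western blot the study found more histone crotonylation in these cells with MS275. Its ChIP-qPCR found more H3K18cr at promoters and repeats, none of them of this family. H3K18cr had a lower mean at 128 of 134 peaks (95.5%) and H3K18ac at 129 (96.3%), and 125 were lower for both. Among all tested peaks 70.6% and 68.6% were lower, and among start peaks of any gene 92.3% and 90.7%, close to the members' shares. The median log2 change was -0.58 for H3K18cr and -0.64 for H3K18ac. Taken by same-numbered libraries 1, 2 and 3, the medians were -0.71, -0.64 and -0.44 for H3K18cr, and 101 peaks were lower in every pair. For H3K18ac they were -0.07, -0.79 and -1.06. The first pair was thus near 0 for H3K18ac, with 78 of 134 peaks lower in it, and 74 were lower in every pair. For H3K18cr, 46 peaks were called lower and 0 higher at a limma adjusted p under 0.05, which is 34.3% of the members' peaks against 13.3% of all peaks called lower. For H3K18ac, 38 were called lower and 0 higher, or 28.4% against 10.8%. The study compared these libraries with a paired test. With the library number as a block, limma called 49 member peaks lower for H3K18cr (36.6%, against 13.1% of all peaks), and for H3K18ac it called 25 (18.7%, against 7.11%). Of the peaks at the start of any gene in the table, 35.2% were called lower for H3K18cr, with a median change of -0.55, and 29.3% for H3K18ac, with a median of -0.60. Peaks at no gene start had medians of -0.09 and -0.07, with 3.92% and 2.77% called lower.

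Within the family, the 104 start peaks had medians of -0.61 (H3K18cr) and -0.67 (H3K18ac), the 25 body peaks -0.52 and -0.56, and the 5 flank peaks -0.33 and -0.23. Called lower for H3K18cr were 38 start peaks, 7 body peaks and 1 flank peak, and for H3K18ac 32, 5 and 1. The 19 body peaks that lay at no gene start had medians of -0.43 and -0.49, with 15.8% called lower for each mark. The members' start peaks were thus near the medians of start peaks of any gene, and their body peaks lay below the medians of peaks at no gene start. Neither comparison was tested. Starts are those of the genes as counted, so a body peak may lie at a RefSeq promoter. Among members with a body or flank peak only, ZNF613 and ZNF573 have the nearest one 47600 and 37714 bases inside. For ZNF574 and ZNF814 it lies 0 and 37 bases away. The 19 body peaks at no gene start also had a median log2 H3K18cr over input of 1.51 in DMSO, against 0.98 at all peaks at no gene start. All MS275 values lay under all DMSO values at 81 of the 134 peaks for H3K18cr, where 29.9% of all peaks had this order, and at 70 for H3K18ac, where 23.1% did. Among start peaks of any gene the share was 62.2% and 49.8%, close to the members' 60.4% and 52.2%. Summed over the 104 start peaks, H3K18cr had 11976, 11494 and 11791 scaled reads in DMSO libraries 1 to 3 and 7010, 6842 and 8297 with MS275. The treatments did not overlap. The sums of H3K18ac were 10971, 13603 and 17584 with DMSO and 9557, 7592 and 7608 with MS275. They did not overlap either, but the DMSO libraries were spread more widely. In the inputs the sums were 3551 and 3370. As a percent of the scaled reads at start peaks of any gene, the H3K18cr sums of the treatments did overlap. They were 0.425, 0.431 and 0.494 with DMSO and 0.411, 0.411 and 0.441 with MS275. Those of H3K18ac did not overlap, at 0.501, 0.516 and 0.504 with DMSO and 0.468, 0.480 and 0.482 with MS275.

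The calls rested on few libraries. Without DMSO library 1, DMSO library 2, MS275 library 1 or MS275 library 2, the 46 H3K18cr calls of limma went to 0 in each case, as did those over all peaks, with 64 to 69 member peaks at an unadjusted p under 0.05, and without DMSO library 3 or MS275 library 3 they were 48 and 51, with 8130 and 5431 over all peaks. For H3K18ac, the 38 calls became 64, 25 and 5 without DMSO library 1, 2 or 3, and 59, 15 and 13 without MS275 library 1, 2 or 3. The calls over all peaks went the same way, from 4463 to 7064, 2802 and 386, and to 6751, 1408 and 1232. Scaling by TMM over the peaks, which sets the bulk of the peaks equal, raised the median over all peaks: for H3K18cr it went from -0.20 to 0.04, and the H3K18ac median of -0.19 became 0.06. The members' medians became -0.33 and -0.37 on that scale. They stayed below the bulk of the peaks, but 0 H3K18cr calls and 29 H3K18ac calls (1 of them higher) were left, against 0 and 4432 over all peaks, with 51 member peaks of H3K18cr at an unadjusted limma p under 0.05.

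**Figure D3:**
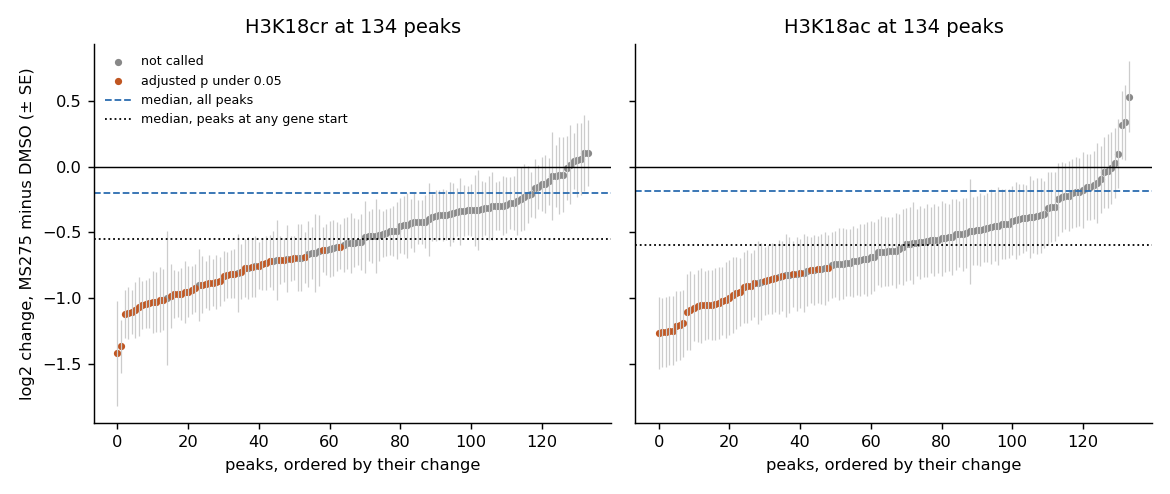
The log2 change (MS275 minus DMSO, scaled reads) with its SE is plotted for the 134 peaks of the family, H3K18cr at left and H3K18ac at right, each ordered by its own change; orange marks an adjusted p under 0.05. Most points lie below 0, and the medians of all peaks (-0.20 and -0.19) and of start peaks of any gene (-0.55 and -0.60) are drawn as lines.

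ZNF497 had the largest called fall of H3K18cr among member peaks with a mean of at least 50 scaled reads. Its start peak (chr19:58361101-58363800), which spans the promoter printed above, had 262, 228 and 312 scaled reads in the DMSO libraries and 107, 86.4 and 118 with MS275. The groups were far apart, and the log2 change was -1.37 ± 0.20 (SE, limma adjusted p = 0.0206). H3K18ac at that peak went from 325 ± 60.6 to 137 ± 28.7 scaled reads (SD, n = 3), a log2 change of -1.25 ± 0.26 (adjusted p = 0.00878). ZNF561 followed, with 153, 167 and 173 scaled reads of H3K18cr in DMSO libraries and 67.5, 72.2 and 88.4 with MS275 at chr19:9620251-9622350. Its log2 change was -1.12 ± 0.18.

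The long start peak of ZNF628 (chr19:55472401-55478400) was the strongest of the family in reads. It held 542, 523 and 622 scaled reads of H3K18cr with DMSO and 262, 204 and 359 with MS275, a log2 change of -1.07 ± 0.23. Its body peak fell by 1.11 on the log2 scale. ZNF558 (-1.11), ZNF784 (-1.09), ZNF837 (-1.05) and the body peak of ZNF627 (-1.04) complete the 8 largest called falls, and H3K18ac was called lower at all 8, though not at ZNF558 (limma adjusted p = 0.111) and ZNF784 (0.0706) with the block. Of the 8 peaks, 5 also lie at the start of a gene outside the family: those of ZNF497, ZNF561 and ZNF558 and both of ZNF628. At ZNF627 the start peak did not pass the test for H3K18cr (-0.37 ± 0.19, limma adjusted p = 0.233). The RefSeq promoter of ZNF627 lies 38109 bases from that start, inside the gene as counted, so start and body may not mean promoter and body there. No member peak was called higher on this scaling. The highest changes of H3K18cr lay just above 0, up to 0.10, and the highest of H3K18ac was 0.53, at a flank peak of ZNF653 (adjusted p = 0.222). Nearest the threshold for H3K18cr were ZNF480 inside (-0.77, adjusted p = 0.0469) and ZNF544 outside (-0.66, adjusted p = 0.0513).

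The change of H3K18cr did not differ detectably from that of H3K18ac at any member peak. In the test of the difference over 12 libraries, 0 of 134 member peaks and 0.0% of all peaks were called (limma adjusted p under 0.05), and 0 member peaks reached an unadjusted p under 0.05. The median difference (H3K18cr change minus H3K18ac change) was 0.04, the largest was 1.04 in size, and the median SE was 0.35, so differences of that order could not be seen. At ZNF497 it was -0.12 ± 0.32. Of the called peaks, 27 were called for both marks, 19 for H3K18cr alone and 11 for H3K18ac alone, and these last counts do not show that the marks differ.

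In RNA, the family did not move as a block. The median log2 change of the 151 tested members was 0.01, with 74 below 0 and 77 above, and the interquartile range was between -0.18 and 0.29. Over all 14961 tested genes the median was 0.01 and the interquartile range was between -0.19 and 0.27. Without pairing, 0 members were called by edgeR's quasi-likelihood test (adjusted p under 0.05; 0.00668% of all genes were), 6 had an unadjusted p under 0.05, and DESeq2 called 0 members. As same-numbered libraries varied together, the number was also used as a block. Then 7 of 151 members were called, 3 higher and 4 lower, which is 4.64% against 14.4% of all genes. In tested ZNF genes of other chromosomes 15 of 219 were called, and in the other genes of chromosome 19 it was 135 of 950. The median SE with the block was 0.29 in members and 0.14 in all tested genes, and its part in the lower share of calls was not tested. The groups did not overlap for 6 members, or 3.97%, against 5.37% of all genes.

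All 4 fallers called with the block had a peak at the start given in the table, as did 107 of the 151 tested members. ZNF653, a transcriptional repressor whose gene overlaps ECSIT on the same strand, had 10.8, 11.05, 14.2 and 7.52 CPM in DMSO libraries 1 to 4 and 4.03, 4.43, 8.90 and 5.05 with MS275. Every same-numbered pair fell, while the groups overlapped. The log2 change was -0.995 ± 0.220 with the block (edgeR adjusted p = 0.0106) and -0.96 ± 0.32 without it (adjusted p = 0.509). In scaled reads at its start peak, H3K18cr fell by 0.97 and H3K18ac fell by 1.19 on the log2 scale, both called. That peak also lies at the start of another gene.

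ZNF587B, a member of the large group near the end of the chromosome, went from 13.6, 11.8, 9.68 and 7.61 CPM to 7.19, 6.85, 6.50 and 5.23. All MS275 libraries were below all DMSO libraries. Its log2 change was -0.71 ± 0.19 with the block (edgeR adjusted p = 0.0274). It overlaps ZNF586 on the same strand, so that reads of the pair may be shared. The peak at its start in the table also lies at the start of a gene outside the family, and its RefSeq promoter starts 10558 bases away, outside that peak.

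ZNF579 and ZNF787 are among the most highly expressed members and overlap no other gene of the table. ZNF579 had 53.0, 48.2, 90.9 and 44.9 CPM with DMSO and 38.5, 39.5, 72.4 and 30.8 with MS275. It was lower with MS275 in each pair, by less than the gap between library 3 and the rest, and the log2 change was -0.40 ± 0.09 (block, edgeR adjusted p = 0.0114). ZNF787 changed by -0.31 ± 0.09 (adjusted p = 0.0381). H3K18cr at the start of ZNF787 was called lower (-0.83 ± 0.19), and at ZNF579 it was not (-0.49 ± 0.19, limma adjusted p = 0.111).

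The risers were ZNF28, ZNF468 and ZNF780A. ZNF28 and ZNF468 overlap each other on the same strand (chr19:52797409-52857600 and chr19:52838008-52857649), and neither has a peak within 2 kb. Their changes may therefore not be independent, since the counting of reads in overlapping genes is not stated. ZNF28 also overlaps ZNF600 on the same strand. ZNF468 had 8.06, 8.86, 2.05 and 7.52 CPM with DMSO and 12.9, 11.7, 5.64 and 10.9 with MS275. In each pair it was higher with MS275, and library 3 was the lowest in both treatments. Its log2 change with the block was 0.75 ± 0.22 (edgeR adjusted p = 0.0398). ZNF28 changed by 0.58 ± 0.16 (adjusted p = 0.0321) and likewise had its lowest value in library 3 of each treatment. ZNF780A rose by 0.61 ± 0.18 (adjusted p = 0.0436), although H3K18cr at its start peak was called lower (-0.70 ± 0.17). That peak also covers the starts of 2 genes outside the family, and H3K18ac there did not pass the test (-0.65 ± 0.25, limma adjusted p = 0.0978). ZNF780A was the member nearest the threshold from inside, and ZNF784 was nearest from outside (-0.93 ± 0.30, adjusted p = 0.0527).

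**Figure D4:**
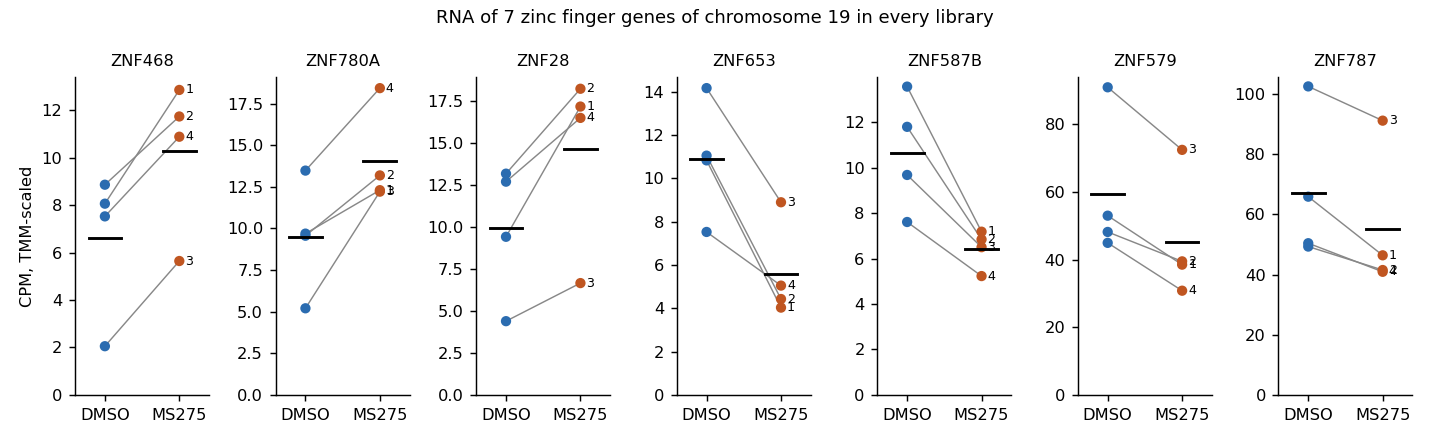
CPM in every RNA library of the 7 members called with the replicate block; grey lines join libraries of the same number, printed beside the MS275 point, and black bars are means of 4. ZNF653 falls from a mean of 10.9 to 5.60 and ZNF468 rises from 6.62 to 10.3, with library 3 apart from the others in several genes.

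None of the 7 calls held whichever number was left out, while the fitted changes kept their direction. The log2 change lay between -1.14 and -0.85 for ZNF653, -0.46 and -0.36 for ZNF579, -0.76 and -0.63 for ZNF587B and -0.36 and -0.24 for ZNF787. For the risers it lay between 0.53 and 0.85 (ZNF468), 0.48 and 0.65 (ZNF28) and 0.41 and 0.71 (ZNF780A). With the block and without number 1, 2, 3 or 4, the members called came to 0, 1, 6 and 1, against 968, 994, 2584 and 1037 genes in all. The libraries numbered 3 were lowest of their treatment for 43.7% of tested members with DMSO and 47.0% with MS275, against 37.3% and 36.6% of all tested genes. They were highest for 24.5% and 19.9% of the members, against 36.7% and 37.6% of all. These differences were not tested. Marker genes also changed in the paired test. All 7 tested epithelial markers were called, with KRT8, KRT18, KRT19 and CDH1 higher and EPCAM, CLDN7 and CDX2 lower, and the 8 listed markers summed to 3604 to 5365 CPM in DMSO libraries and 4593 to 6189 in MS275 libraries. The stromal marker COL1A1 went from 6.999 ± 1.499 to 13.4 ± 3.45 CPM. The summed stromal and endothelial markers (6 of 6 found) lay between 5.75 and 9.22 CPM with DMSO and between 10.4 and 17.4 with MS275, while COL1A2, COL3A1, DCN and PECAM1 averaged under 10 counts. The part of these genes in the result was not tested.

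RNA and marks were set side by side for the 107 tested members with a start peak. H3K18cr, as a part of its library's reads, was lower with MS275 for 104 of them, while RNA was lower for 61 and higher for 46. Of the 104, 59 had lower and 45 higher RNA. Across these genes the log2 changes of RNA and H3K18cr correlated at r = 0.373, and those of RNA and H3K18ac at r = 0.297. This describes 107 genes measured in 1 set of libraries per assay, some of which share a peak, and carries no test. The median RNA change was -0.08 in tested members with a start peak and 0.39 in the 33 without a peak. The latter have the lowest counts and a median SE of 0.59, and 2 of the 33 (6.06%, against 14.4% of all genes) were called with the block, the overlapping genes ZNF28 and ZNF468.

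**Figure D5:**
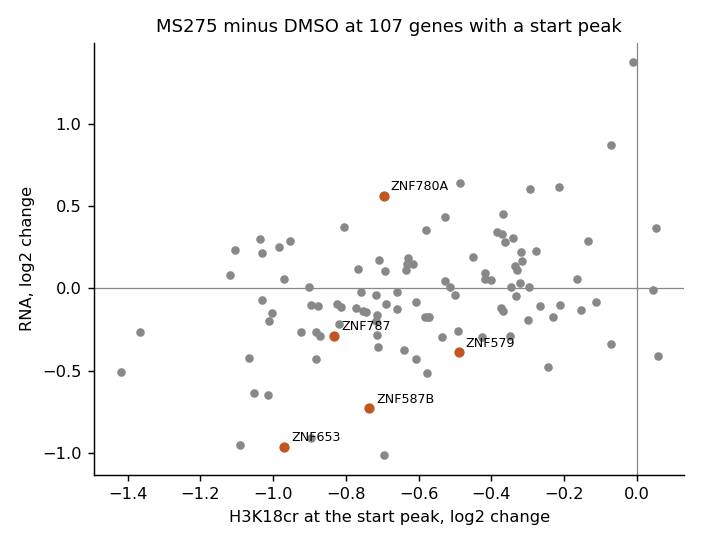
Each point is 1 of 107 members with a start peak, placed by its log2 change of H3K18cr (x axis) and of RNA without the block (y axis), MS275 minus DMSO; members called in RNA with the block are orange. Points lie on both sides of 0 for RNA while nearly all lie left of 0 for H3K18cr, and r is 0.373.

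The partners through which KRAB zinc finger proteins act differed widely in level. Per kb of exon, with DMSO, TRIM28 was at 272 CPM and the HP1 gene CBX3 at 88.1, while SETDB1 (4.94) and its partner ATF7IP (3.94) were close to the 4.62 of the median tested gene and DNMT3A was at 0.999. TRIM28 was at 1171 ± 261 CPM with DMSO and 1056 ± 166 with MS275, and did not pass the test (log2 change -0.15 ± 0.19, edgeR adjusted p = 0.956; with the block -0.14 ± 0.05, adjusted p = 0.114). Without the block, edgeR called 0 genes of the 5 lists of partners, and 1 NuRD gene had an unadjusted p under 0.05. With it, 0 of 6 genes of the TRIM28, SETDB1 and HP1 core were called, and 3 had an unadjusted p under 0.05. With the block, 14.4% of all genes were called, and the counts of these short lists are read against that share. Of 12 NuRD genes, GATAD2B was higher (0.37 ± 0.08) and MBD3 (-0.47 ± 0.08) and MTA2 (-0.39 ± 0.08) were lower with the block. These encode subunits of the complex other than its deacetylases. HDAC1 and HDAC2, the deacetylases themselves, changed by 0.06 ± 0.06 and -0.08 ± 0.06 with the block, and neither was called. Of 6 genes for H3K9 methylation, the methyltransferase gene SUV39H1 was lower (-0.51 ± 0.12). Of the HUSH and MORC genes 0 of 5 were called, and of the ATRX, DAXX and DNA methylation genes 0 of 6.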

How the data were processed

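RNA-seq and ChIP-seq data of HCT116 cells were analysed; mouse tables were not used here. The RNA table holds the read counts per gene that the authors deposited, with no normalization. The submitters' processing notes name Trim Galore 0.4.2, TopHat2 2.0.12 and Bowtie2 2.2.5. The study's methods name HiSat2, with only the mouse genome given for RNA-seq, and SeqMonk counting of uniquely mapped reads. Strand use is not given in the sources used here. Unique mapping can lose reads in near-identical paralogs. The peak table holds log2 values that the authors deposited: reads per peak multiplied by 1 factor per library, with 0.9 read in place of 0. The peaks were called once for all libraries by MACS in SeqMonk on GRCh38, after duplicate removal, and 100% of values came out within 0.05 read of a whole number of reads times the factor, or of the 0.9 that stands for 0. No column was left unmapped.

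Genes passing filterByExpr were tested with edgeR 4.0.16 (TMM, quasi-likelihood), and peaks with a mean of at least 10 scaled reads with limma 3.58.1, in R 4.3.3, both fitted on the whole table with Benjamini-Hochberg adjustment and called at an adjusted p under 0.05. Deviations of same-numbered RNA libraries from their group means correlated at 0.226, 0.151, 0.433 and 0.460 for numbers 1 to 4, all above 0.1, so numbers were treated as pairs; the crossed pairs of numbers 2 and 4 correlated at 0.239 and 0.219, above the 0.151 of number 2 itself. The pairing rests on the data alone, since the labels do not say what a number marks. DESeq2 1.42.0, edgeR on recovered reads, other scalings, filters and windows (0 and 5 kb, starts alone) were alternatives. Named genes were members called in either fit with a mean of at least 100 counts (up to 12 each way), the 5 highest per exon kb, and those nearest the threshold; named peaks were the 8 largest falls and any rises of H3K18cr among called peaks with at least 50 reads, and the 3 highest over input. Members, lists and rules were chosen with earlier results of these data known. The edgeR and limma tests were tested on simulated data. Promoters are RefSeq's, and 36 members had no match. Protein features were not analysed here.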

Additional observations from a re-analysis of the deposited data

Results flagged for a closer look

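Each named member's 4 values per treatment were checked for 1 library far from the other 3. With the summed counts of the family, 24 groups of 4 were checked and 5 stood out; chance gives about 1 in 20. With MS275, ZNF780A had 18.4 CPM in its highest library and between 12.2 and 13.2 in the others. ZNF28 had 6.66 in library 3 with MS275, below the 16.5 to 18.2 of the others. ZNF146 had 78.0 in the same library, against 151 to 164 in the rest. ZNF787 went the other way there, with 91.2 against 40.9 to 46.4. With DMSO, ZNF784 had 8.93 in library 3 and between 4.48 and 4.65 elsewhere. Of the 5, 4 were libraries numbered 3, and the cause was not tested.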

How the results depend on the processing

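For RNA, the 0 members called became 7 with the replicate block (2151 genes in all) and 9 with DESeq2 and the block, an alternative added after the data were seen (2851 genes). With DESeq2 alone, 140 genes and 0 members were called, and with no filter on low counts 13 genes and 0 members. With the block, leaving out 1 number gave 0, 1, 6 and 1 members and 968, 994, 2584 and 1037 genes. Without the block, leaving out 1 library gave 0 members and 0 or 1 gene, and a median member change between -0.0156 and 0.0753. ZNF146 was between -0.27 and 0.07 when 1 library was left out, and changed direction without MS275 replicate 3. For H3K18cr, leaving out 1 library gave 0 to 51 member peaks and 0 to 8130 peaks in all (46 and 5473 with all libraries), and a median between -0.62 and -0.52. TMM over the peaks gave 0 member peaks and 0 in all with a median of -0.33, with and without the replicate block, and with a mean-variance trend it gave 36 member peaks and 5224 in all at the same median of -0.33. edgeR on recovered reads gave 71 and 10108, DESeq2 on recovered reads 56 and 8580, and limma with a trend 69 and 9307. For H3K18ac, leaving out 1 library gave 5 to 64 member peaks and 386 to 7064 in all, and a median between -0.79 and -0.48. edgeR gave 62 member peaks and 6653 in all, and limma with a trend 59 and 6646; TMM with a trend called 8488 peaks in all, and TMM with the block 0. The replicate block gave 25 member peaks and 2950 in all for H3K18ac, and 49 member peaks for H3K18cr. The labels do not say what a ChIP number marks: deviations of same-numbered libraries correlated at 0.108, 0.074 and 0.23 for H3K18cr and at -0.207, 0.049 and -0.134 for H3K18ac. The difference between the marks gave 0 member peaks under every alternative and up to 4 peaks in all without replicate 2. Windows of 0 or 5 kb and start peaks alone changed no count by over 1.5 times. With 1 arm reduced, the remaining libraries are assumed to vary alike. Low counts limit the RNA test for 98 members, and 3 libraries per group limit the ChIP tests.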

Other observations

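Low RNA counts were not spread evenly over odd and even values. Among counts of 1 to 10 over all genes, odd values made up 51.5% to 57.6% in DMSO libraries 1 and 3 and MS275 library 1, and 74.4% to 78.2% in the other 5 libraries.

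ZNF527 and ZNF225 had no overlap between treatments in RNA without being called in either fit: ZNF527 averaged 0.544 CPM with DMSO and 1.35 with MS275, and ZNF225 3.45 and 5.58. They were chosen after their values were seen. Both rose, and they are the 2 without a peak among 6 members with no overlap. The other 4 have a start peak and include fallers such as ZNF587B.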
